A study of Mus musculus with 4 samples.

Results

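The genes described here are 37 genes of the proximal tubule, the first segment of the nephron after the glomerulus, that take up protein or process sugars, amino acids, peptides, steroids and drugs; solute carriers are not among them. They were chosen by name, with earlier results of these data known. Ace3 is not analysed here. The other 36 were found among the gene names on the array, through 45 probes, the spelling MeP1a being matched as Mep1a. Of these, 34 passed the filter on dim probes and were tested among 24150 genes in all, while Hpd and Kap did not pass. RNA of embryonic mouse kidney cells at E15.5, of a 129 and C57BL/6 hybrid strain, was hybridised to 4 arrays of 1 colour. A cell sorter had divided the kidneys by fluorescence into Six2GFP-positive cells (2 arrays, S1 and S2), labelled nephron progenitors, and Six2GFP-negative cells (2 arrays, S1 and S2), the cells without the green fluorescent reporter. The negative cells carry that label too, and tamoxifen is named in the descriptions but in no protocol, so the groups follow the titles. No label says how the reporter was built, how many kidneys were pooled, or that S1 and S2 came from separate litters, so p-values measure only the spread between these arrays.

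The proximal tubule takes most of the filtered load back into the blood. Megalin and cubilin on its brush border bind filtered protein and carry it into the cell, where it is broken down, while peptidases on the same membrane cut filtered peptides. The segment also makes glucose from lactate and amino acids, makes the creatine precursor, oxidises myo-inositol and activates vitamin D. In the embryo it arises from nephron progenitors by way of the renal vesicle and the S-shaped body, and HNF4A, a nuclear receptor, is needed for its differentiation.

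On a log2 scale relative to each array's 75th percentile, Six2, which the reporter is named for, had 5.58 and 5.74 in positive cells, against -0.17 and -0.15 in negative cells, and Cited1 5.38 and 5.12 against 0.29 and 0.61. The arrays thus separated in the direction of their labels. Probes well above background made up 75.2% and 72.5% in positive cells, against 79.1% and 76.8% in negative cells. None was saturated. Precision is limited by having 2 arrays a group. Apart from folds and summed levels, which are linear, all values below are on this log2 scale. Every difference is positive minus negative, and levels of different probes cannot be set against each other.

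Most of these genes were lower in Six2GFP-positive cells. In all, 27 of 34 passed an adjusted p of 0.05 in limma in either direction, against 38.9% of all genes. Of the 34 tested, 25 were lower, which was the case for 18.3% of all genes, and 2 were higher, against 20.7% of all genes. The remaining 7 did not pass. Of the 25, Cyp4b1, Cyp24a1 and Ttr passed the filter on dim probes through the negative arrays alone. With a filter that asks for all 4 arrays, 22 of 31 members were lower and 3 higher, beside 3647 genes lower and 5337 higher over the whole array. The median difference over the 34 was -2.02, against 0.15 over all genes. Of the 34, 17 were lower by at least 4-fold and 13 by at least 8-fold, against 7.36% and 4.07% of all genes. The 2 groups of arrays did not overlap, with the positive ones lower, for 27 of the 34, against 27.4% of all genes, and with the positive ones higher for 3, against 47.4%. Centring on the array median moved the median over all genes to 0.41 and the split from 4989 higher and 4413 lower to 10810 and 3767, and gave 25 members lower and 3 higher with a median of -1.77. Leaving out 1 array gave medians of -2.35 to -1.82 over the members, against 0.11 to 0.18 over all genes. In these sorted bulk samples, fewer tubule cells and less RNA per tubule cell cannot be told apart.

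**Figure D1:**
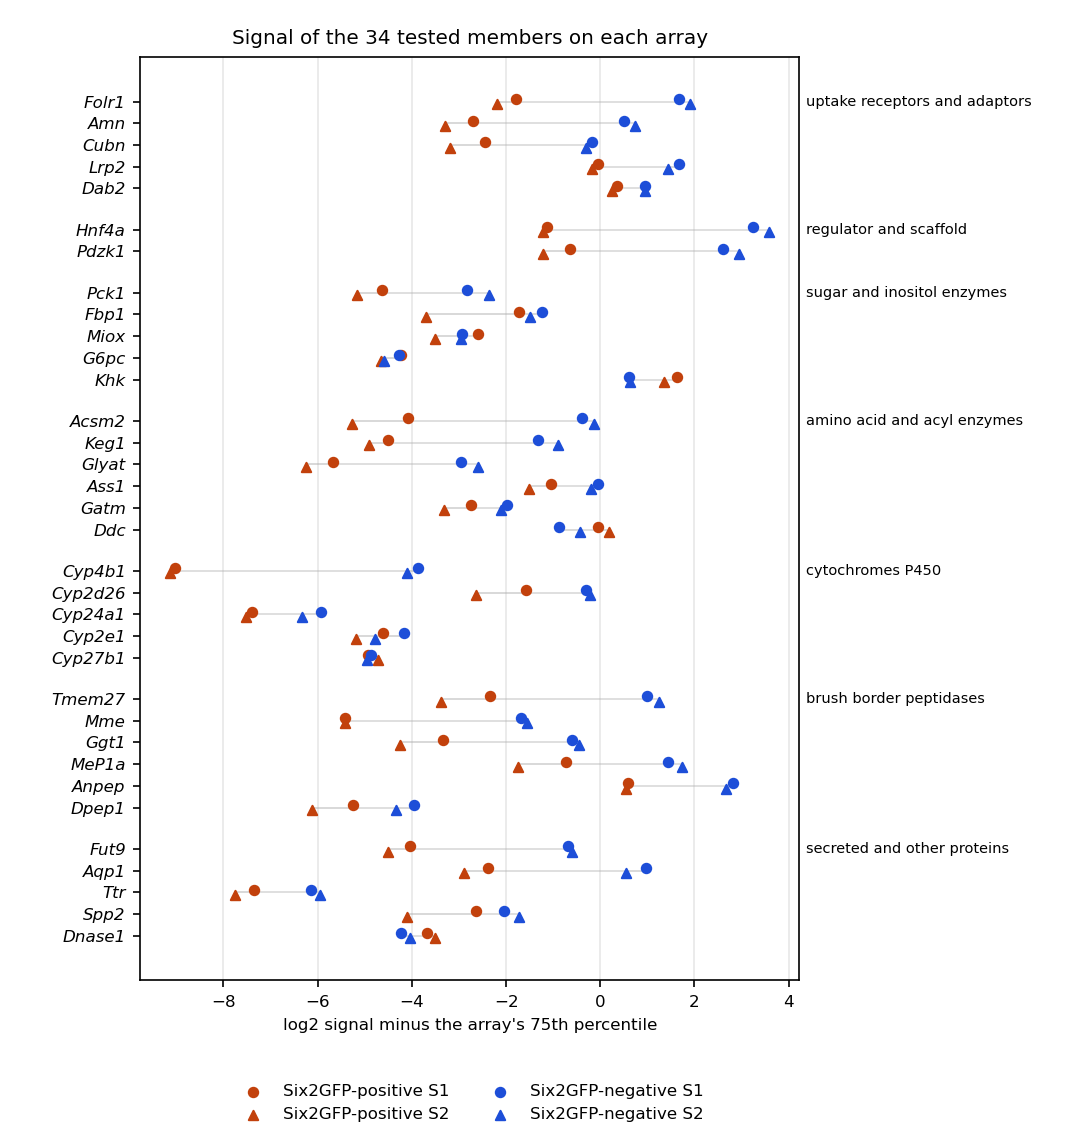
Log2 signal minus the array's 75th percentile (x axis) of the 34 tested genes (rows, grouped by role) on each of the 4 arrays, with orange for Six2GFP-positive, blue for Six2GFP-negative, circles for S1 and triangles for S2. Most orange points lie left of the blue ones, as for Hnf4a at -1.13 and -1.22 against 3.25 and 3.59, while those of G6pc, Miox, Cyp2e1 and Cyp27b1 overlap.

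Each probe is a 60-base oligo. Those of 3 called members have mm9 coordinates that span more than the 60 bases of the probe, and are shown because such a probe matches RNA from which intervening sequence has been removed: the Amn probe at chr12:112514095-112514243 on the plus strand, that of Ggt1 at chr10:75048435-75048670 on the plus strand and that of Glyat at chr19:12724890-12725749 on the plus strand.
Amn: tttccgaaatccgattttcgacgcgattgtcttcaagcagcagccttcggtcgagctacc
Ggt1: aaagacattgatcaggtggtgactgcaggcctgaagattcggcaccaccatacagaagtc
Glyat: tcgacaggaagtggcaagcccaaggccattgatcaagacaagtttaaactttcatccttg
All 3 genes were lower in positive cells, as given below. The Hpd probe also spans a longer stretch, 2124 bases on chromosome 5, but was not well above background on any array.

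The receptors and adaptors of uptake were all lower in Six2GFP-positive cells, 5 of 5 against 18.3% of all genes, with a median difference of -2.59. Folr1, the folate receptor that carries folate into the cell, had -1.79 and -2.19 in positive cells, against 1.67 and 1.90 in negative cells, which is 13.7-fold lower (-3.78 ± 0.18, SE, n = 2 arrays per group here and below; limma adjusted p = 9.57e-04). Its other probe had -4.37 and -4.48 against -2.20 and -1.89, a smaller difference in the same direction (-2.38 ± 0.14). Amn, which holds cubilin at the membrane, had -2.71 and -3.31 against 0.51 and 0.73, a 12.4-fold lower signal (-3.63 ± 0.24, adjusted p = 0.00185). Cubn, which encodes cubilin, had -2.46 and -3.20 against -0.17 and -0.30, 6.04-fold lower (-2.59 ± 0.28, adjusted p = 0.00612). The other Cubn probe, not well above background on either positive array, gave -3.50. In each of the 3 genes both positive arrays were below both negative arrays by well over the gap within a group.

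Lrp2, which encodes megalin, differed less. It had -0.057 and -0.18 in positive cells and 1.68 and 1.43 in negative cells, 3.18-fold lower (-1.67 ± 0.13, adjusted p = 0.00249). Dab2, the adaptor that links megalin to clathrin and is also made by stromal cells and macrophages, had 0.36 and 0.24 against 0.96 and 0.96, a 1.58-fold lower signal (-0.66 ± 0.091, adjusted p = 0.0115). The Dab2 call ended without positive S2 (adjusted p = 0.0691), negative S1 (0.0537) or negative S2 (0.0572), and its difference was -0.40 with centring on the array median. Within the uptake complex the differences thus ran from 1.58-fold for the adaptor to 12.4-fold for Amn, and differences between these genes were not tested.

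Other parts of the endocytic machinery, are shared by cells of many kinds. Of 12 such genes tested, 6 were lower and 1 higher, against 18.3% and 20.7% of all genes, with a median of -0.55. The actin motor gene Myo6 was lower by the largest amount (-1.74 ± 0.22, adjusted p = 0.00904), followed by Lrp1, a megalin relative (-1.61 ± 0.16, adjusted p = 0.00465). The early endosome gene Rab5a had 1.55 and 1.43 against 1.39 and 1.39 and did not pass.

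Hnf4a, which encodes the regulator, was 24.1-fold lower in positive cells. It had -1.13 and -1.22 in positive cells, against 3.25 and 3.59 in negative cells (-4.59 ± 0.15, adjusted p = 5.53e-04). The probe lies at mm9 chromosome 2, 163398548 to 163398607. Pdzk1, a scaffold that holds carriers in the brush border, had -0.65 and -1.21 against 2.60 and 2.94, 13-fold lower (-3.70 ± 0.25, adjusted p = 0.00187), and its other probe gave -3.60. Both genes separated the groups by several times the gap within either.

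Other regulators of the forming proximal nephron were lower as well, 9 of 10 against 18.3% of all genes. Their median was -2.57, or -2.504 with 1 bounded gene at its bound. Lhx1, a transcription factor of the renal vesicle, had -2.21 and -2.53 against 2.54 and 2.66 (-4.97 ± 0.15, adjusted p = 5.15e-04). Ppara, a regulator of fatty acid oxidation, was the member that did not pass, at -0.80 and -0.82 against -0.87 and -1.11.

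RefSeq promoter windows, which run from 250 bases before to 50 bases after a gene's start in GRCm38.p6, were held for 33 of the 37 genes and for 27025 genes in all. Some genes have several windows, 45 for the 33 genes and 32851 for all genes. A gene was counted where any of its windows matched, so the shares were not adjusted for the number of windows. A total of 12 motifs were searched on both strands, and the 7 shorter ones are given here; the HNF4 forms overlap each other. The motif GTTAAT was in the windows of 10 of the 33 genes (30.3%), against 8.24% of all genes: Acsm2, Cyp2d26, Dab2, Dnase1, G6pc, Hnf4a, Khk, Miox, Pck1 and Tmem27. These include genes lower in positive cells as well as G6pc and Miox, which did not pass, and Khk and Dnase1, which were higher. The HNF4 motif CAAAGTCCA was in Pdzk1 (3.03% against 0.555%), its shortened form CAAAGTCC in Ggt1 and Pdzk1 (6.06% against 1.63%) and AAAGTCCA in Pdzk1 (3.03% against 1.46%). The nuclear receptor motifs TGACCTTTG and TGAACTTTG were in none of the 33, against 0.544% and 0.448% of all genes. TATAAA was in 9 of the 33 (27.3% against 15.7%). The median GC content was 52.7% in windows of these genes and in all windows. A match says only that the letters are there.

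Windows of 4 of these genes are shown, with GTTAAT on either strand (CAAAGTCCA in Pdzk1) in capitals, because they belong to genes with different outcomes: the regulator Hnf4a, the scaffold Pdzk1 and the brush border gene Tmem27, all lower in positive cells, and G6pc, which did not pass. They lie in GRCm38.p6 at chr2:163546905-163547204 (plus strand), chr3:96829815-96830114 (plus), chrX:164089937-164090236 (plus) and chr11:101367466-101367765 (plus), in that order. The first of 2 matches begins 81 bases before the start in Hnf4a and 73 bases before it in Tmem27, and the only match 221 bases before it in G6pc and 14 bases after it in Pdzk1.
Hnf4a: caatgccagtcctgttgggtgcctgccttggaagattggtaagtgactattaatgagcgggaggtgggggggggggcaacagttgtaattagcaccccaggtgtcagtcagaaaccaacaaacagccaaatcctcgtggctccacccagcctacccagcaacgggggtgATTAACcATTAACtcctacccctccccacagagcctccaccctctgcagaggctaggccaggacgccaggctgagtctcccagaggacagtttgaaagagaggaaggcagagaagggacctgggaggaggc
Pdzk1: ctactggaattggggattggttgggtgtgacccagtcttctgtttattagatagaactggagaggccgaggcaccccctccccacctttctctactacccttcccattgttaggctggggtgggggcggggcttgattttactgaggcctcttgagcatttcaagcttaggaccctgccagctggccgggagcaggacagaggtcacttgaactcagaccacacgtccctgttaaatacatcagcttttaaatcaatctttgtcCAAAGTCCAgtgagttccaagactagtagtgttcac
Tmem27: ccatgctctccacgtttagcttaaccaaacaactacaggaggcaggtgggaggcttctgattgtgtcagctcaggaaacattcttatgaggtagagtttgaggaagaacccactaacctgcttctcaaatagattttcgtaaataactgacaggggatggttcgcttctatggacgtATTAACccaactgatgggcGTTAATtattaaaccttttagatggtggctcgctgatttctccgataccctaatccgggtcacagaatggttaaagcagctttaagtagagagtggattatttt
G6pc: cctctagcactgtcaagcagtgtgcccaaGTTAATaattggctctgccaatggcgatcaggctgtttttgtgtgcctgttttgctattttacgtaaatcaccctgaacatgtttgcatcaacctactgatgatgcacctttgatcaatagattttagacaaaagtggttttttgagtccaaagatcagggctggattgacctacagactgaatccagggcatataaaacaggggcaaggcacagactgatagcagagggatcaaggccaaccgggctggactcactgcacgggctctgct

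Enzymes of sugar and inositol metabolism were lower in 1 of 5 cases and higher in 1, shares near those of all genes (18.3% and 20.7%), with a median of -0.11. Pck1, which encodes the enzyme that commits carbon to glucose synthesis, had -4.62 and -5.16 against -2.83 and -2.36, 4.94-fold lower (-2.30 ± 0.27, adjusted p = 0.00743). With normexp the Pck1 difference was -1.42 (75th percentile) and -1.31 (quantile). Khk, the ketohexokinase gene of fructose use, was higher, at 1.62 and 1.35 against 0.61 and 0.64 (0.86 ± 0.13, adjusted p = 0.0134), which is 1.81-fold. The Khk call ended without negative S1 or negative S2 (adjusted p = 0.0628 and 0.0645). These were the only called genes of the group, and they went in opposite directions.

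The other sugar and inositol genes did not pass. Fbp1, the fructose bisphosphatase of glucose synthesis, had -1.72 and -3.69 in positive cells and -1.24 and -1.50 in negative cells (-1.34 ± 0.71, adjusted p = 0.208), so that positive S1 lay near the negative arrays and positive S2 far below. Without positive S1 its difference was -2.32 (adjusted p = 0.0073), and without positive S2 it was -0.35. G6pc, the glucose phosphatase that releases free glucose, had -4.24 and -4.66 against -4.27 and -4.59, and the groups overlapped (-0.024 ± 0.21, adjusted p = 0.934). Miox, the oxygenase that opens myo-inositol, had -2.60 and -3.52 against -2.94 and -2.96 (-0.11 ± 0.33, adjusted p = 0.813), with the negative arrays between the positive ones. The signs of G6pc and Miox turned under other scalings.

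Enzymes of amino acids and of acyl conjugation were mostly lower, 5 of 6 tested against 18.3% of all genes, with a median of -2.17. Acsm2, a medium-chain acyl-CoA synthetase gene, had -4.09 and -5.27 against -0.38 and -0.13, 21.5-fold lower (-4.42 ± 0.44, adjusted p = 0.0049). Keg1, a glycine N-acyltransferase-like gene expressed in kidney, had -4.51 and -4.91 against -1.31 and -0.90, 12.1-fold lower (-3.60 ± 0.22, adjusted p = 0.00153). Glyat, the glycine N-acyltransferase gene that lies near it on chromosome 19, had -5.68 and -6.24 against -2.96 and -2.59, 9.11-fold lower (-3.19 ± 0.25, adjusted p = 0.00287). With normexp the Glyat difference was -1.57 (75th percentile) and -1.54 (quantile). These 3 separated the groups with no overlap.

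Ass1, the argininosuccinate synthetase of arginine synthesis, and Gatm, which makes the creatine precursor, differed by smaller amounts. Ass1 had -1.04 and -1.50 against -0.042 and -0.20 (-1.15 ± 0.19, adjusted p = 0.018), a call that ended without negative S1 or S2 (0.0781 and 0.0697). Gatm had -2.74 and -3.33 against -1.98 and -2.10 (-0.998 ± 0.23, adjusted p = 0.0362), and its call ended without positive S2, negative S1 or negative S2 (0.0599, 0.126 and 0.109) and with no filter on dim probes (0.069), and its difference was -0.64 with normexp and quantile normalization. Ddc, which makes dopamine in the tubule, lay the other way without passing, at -0.041 and 0.18 against -0.88 and -0.43 (0.72 ± 0.20, adjusted p = 0.0543). It passed as higher under several alternatives, among them centring on the array median (adjusted p = 0.0179), the mean of its probes (0.029) and the fit without negative S2 (0.0478). Hpd, of tyrosine breakdown, was not well above background on any array.

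Of 16 tested enzymes that act beside these members, 5 were lower and 2 higher, against 18.3% and 20.7% of all genes, with a median of -0.28. The mitochondrial arginase gene Arg2 had -6.18 and -6.79 against -2.03 and -2.08 (-4.43 ± 0.23, adjusted p = 0.0011). The pyruvate carboxylase gene Pcx was higher, at 1.63 and 1.76 against 0.77 and 0.75. Within glucose synthesis, therefore, Pck1 was lower, Pcx higher, and G6pc and Fbp1 did not pass.

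Of the 5 cytochrome P450 genes, 3 were lower and none higher, against 18.3% and 20.7% of all genes. Their median was -1.32, or -0.91 with bounded genes at their bound. Cyp4b1, whose product oxidises fatty acids and foreign compounds, had -9.04 and -9.13 in positive cells, not well above background on either array, and -3.88 and -4.09 in negative cells. It was at least 8.34-fold lower (adjusted p = 5.0e-04), a bound set by the lowest signal well above background, while the p rests on positive signals that are not well above it. With normexp background correction its difference was -1.21 with the 75th percentile and -1.24 with quantile normalization. Cyp2d26, of drug and steroid oxidation, had -1.58 and -2.63 against -0.30 and -0.22, 3.6-fold lower (-1.85 ± 0.38, adjusted p = 0.0294), a call that ended without negative S1 or S2 (0.101 and 0.111) and with no filter on dim probes (0.0575).

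Of the vitamin D enzymes, Cyp24a1, which breaks vitamin D down, was not well above background on either positive array (-7.39 and -7.52) and had -5.93 and -6.33 in negative cells, at least 1.89-fold lower (adjusted p = 0.00994, on positive signals not well above background). That call ended with both normexp settings (-0.030 and -0.13, adjusted p = 0.815 and 0.251). Cyp27b1, which makes active vitamin D, had -4.93 and -4.71 against -4.88 and -4.96 and did not pass (0.092 ± 0.12, adjusted p = 0.56). Cyp2e1, an ethanol-inducible enzyme, had -4.62 and -5.18 against -4.16 and -4.78 (-0.43 ± 0.31, adjusted p = 0.325). The other probe for Cyp2e1 gave the opposite sign, 0.27, and did not pass either.

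Brush border peptidase genes, with the related Tmem27, were lower in 6 of 6 cases, against 18.3% of all genes, with a median of -3.05. Tmem27, now Cltrn, encodes collectrin, a membrane protein related to angiotensin-converting enzyme 2 that has no peptidase domain and is needed for amino acid uptake. It had -2.34 and -3.37 against 0.99 and 1.25, 15.7-fold lower (-3.97 ± 0.39, adjusted p = 0.00476), and its other probe gave -3.78. Mme, the neprilysin gene, had -5.42 and -5.42 against -1.67 and -1.56, 13.9-fold lower (-3.80 ± 0.090, adjusted p = 5.0e-04). With normexp the Mme difference was -2.46 (75th percentile) and -2.41 (quantile). Ggt1, which cuts glutathione, had -3.33 and -4.25 against -0.59 and -0.45, 9.66-fold lower (-3.27 ± 0.34, adjusted p = 0.00564).

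The other 3 peptidase genes were lower by smaller amounts. MeP1a, a meprin subunit gene, had -0.72 and -1.75 against 1.43 and 1.74 (-2.82 ± 0.39, adjusted p = 0.0116), a call that ended without negative S1 or S2 (0.0533 and 0.0657). Anpep, which encodes aminopeptidase N and is also made by stromal and myeloid cells, had 0.58 and 0.54 against 2.82 and 2.68 (-2.19 ± 0.096, adjusted p = 7.97e-04). Dpep1, a dipeptidase gene, had -5.25 and -6.12 against -3.95 and -4.34 (-1.54 ± 0.35, adjusted p = 0.0364). The Dpep1 call ended without positive S2, negative S1 or negative S2 (0.0614, 0.129 and 0.0934) and with no filter on dim probes (0.0685), and its difference was -0.56 and -0.54 with the normexp settings.

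Of the remaining genes, for secreted, membrane and other proteins, 3 of 5 tested were lower and 1 higher, against 18.3% and 20.7% of all genes. Their median was -1.51, or -1.496 with Ttr at its bound. Fut9, which makes a fucosylated surface glycan, had -4.05 and -4.51 against -0.69 and -0.60, 12.4-fold lower (-3.64 ± 0.19, adjusted p = 0.00105). The other Fut9 probe, not well above background on either positive array, gave -3.73. Aqp1, the water channel of the proximal tubule, also made by endothelial and red cells, had -2.39 and -2.90 against 0.98 and 0.54, 10.6-fold lower (-3.40 ± 0.25, adjusted p = 0.00239). Ttr, the thyroxine carrier, was not well above background on either positive array (-7.35 and -7.76) and had -6.14 and -5.96 in negative cells, at least 1.99-fold lower (adjusted p = 0.00791, on positive signals not well above background). The Ttr call ended without negative S2 (0.0501) and with normexp and the 75th percentile (-0.22, adjusted p = 0.0751); with normexp and quantile normalization the difference was -0.33.

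Dnase1, a secreted nuclease gene, was higher in positive cells, at -3.68 and -3.51 against -4.23 and -4.05 (0.54 ± 0.12, adjusted p = 0.0335). That call ended with each of the 4 arrays left out (adjusted p = 0.0833 and 0.141 without positive S1 and S2, 0.105 and 0.071 without negative S1 and S2) and with no filter on dim probes (0.0679), and the difference was 0.81 with quantile normalization. Spp2, a secreted phosphoprotein gene, had -2.64 and -4.11 against -2.04 and -1.72 and did not pass (-1.50 ± 0.54, adjusted p = 0.101). Without positive S1 its difference was -2.23 (adjusted p = 0.00989), without positive S2 it was -0.76, and it also passed with normexp and the 75th percentile (-1.07, adjusted p = 0.0337). Kap, an androgen-regulated kidney gene, was well above background on the S1 array of each group and on neither S2 array (-6.52 and -8.02 against -5.96 and -8.19), and was not tested.

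**Figure D2:**
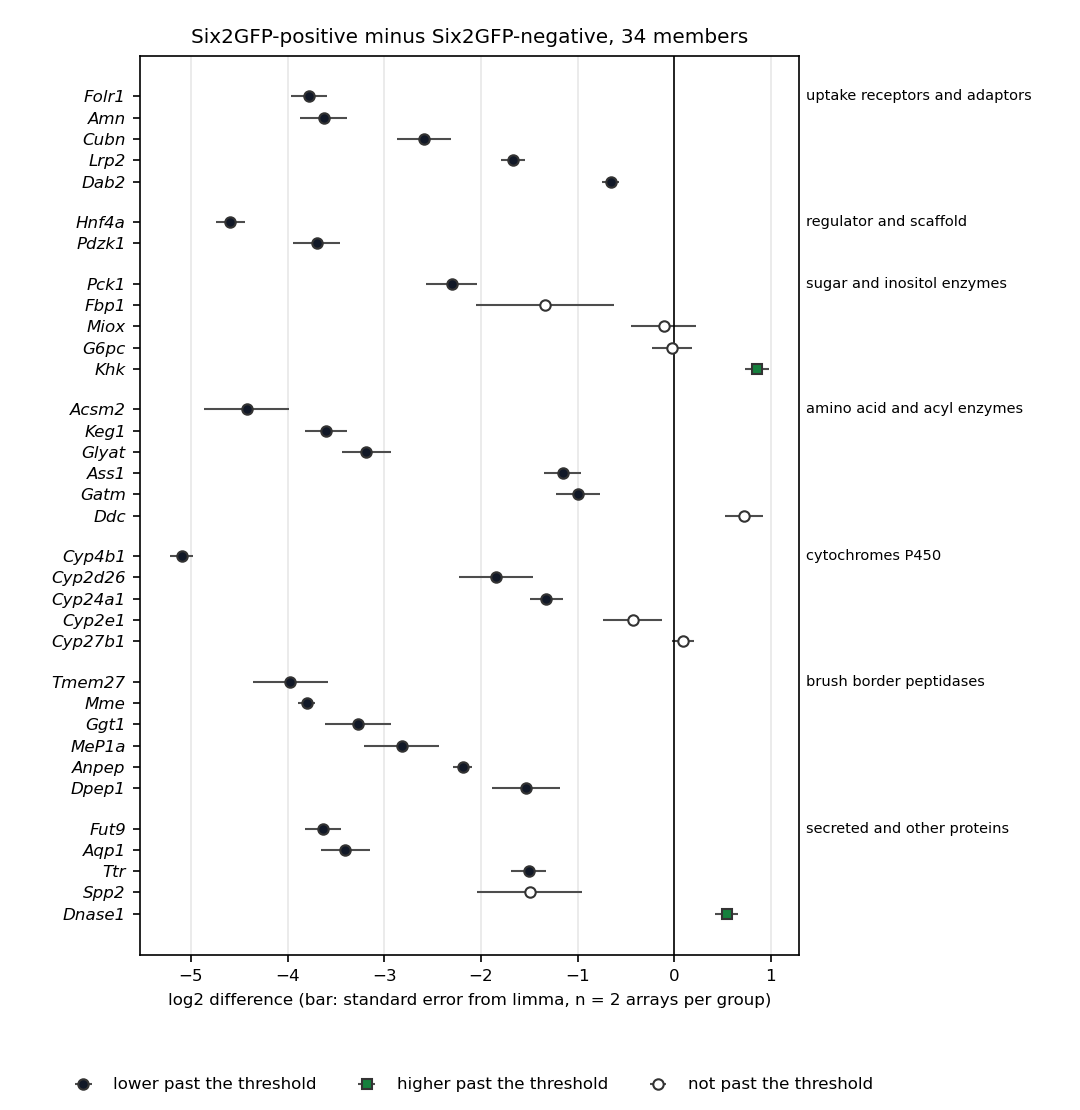
Log2 difference, Six2GFP-positive minus Six2GFP-negative (x axis), of the 34 tested genes grouped by role, with limma's standard error as bars (n = 2 arrays per group). Filled circles mark the 25 genes lower past the threshold, squares the 2 higher (Khk and Dnase1) and open circles the 7 that did not pass; Fbp1 has the widest bar, 0.71.

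Carriers of the proximal tubule, which are not among these genes but share their segment, were also mostly lower. In all, 17 of 26 were lower and 1 higher, against 18.3% and 20.7% of all genes. Their median was -2.12, or -1.997 with 3 bounded genes at their bound. Those 3, all among the 17, passed the filter on dim probes through the negative arrays alone. The glucose carrier gene Slc2a2 had -4.32 and -5.29 against -0.68 and -0.61 (-4.16 ± 0.36, adjusted p = 0.00339), and the organic cation exchanger gene Slc47a1 -5.29 and -5.83 against -2.12 and -2.09 (-3.46 ± 0.21, adjusted p = 0.00153). Thus 25 of 34 genes of uptake and metabolism and 17 of 26 carriers were lower, against 18.3% of all genes.

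Markers of most other cell types were lower in positive cells too, beside 18.3% of all genes lower and 20.7% higher. Of 6 endothelial markers 5 were lower, led by Robo4 and Cdh5 (-5.60 and -5.47), and of 6 erythroid markers all 6, led by Alas2 and Ahsp (-6.35 and -6.08). Of 6 stromal markers 5 were lower, led by Pdgfra (-5.41) and Tbx18 (at least 26.5-fold), of 7 ureteric bud markers 6, led by Ret and Wnt11 (-6.67 and -4.69), and of 6 podocyte markers 5, among them Podxl (-4.45). Of 7 loop and distal tubule markers 3 were lower, led by Pou3f3 and Irx2 (-4.99 and -4.68), and of 6 macrophage markers none. Of 6 cap mesenchyme markers 5 were higher, led by Six2 and Osr1 (5.82 and 5.12). Members that these cells also express, such as Dab2, Anpep and Aqp1, were measured in the same mixtures, and the part of those cells in their differences was not tested.

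Ttr, Spp2 and Hnf4a are among the members also expressed by hepatocytes, so liver markers were measured beside them. Of 8 such markers, Alb, Apoa1 and Apob did not pass the filter on dim probes. Of the 5 tested, 4 were lower and none higher, against 18.3% and 20.7% of all genes. Fgb and Serpina1a, which encode fibrinogen beta and an antitrypsin, led with -3.86 and -3.68. The summed level of the 5, in multiples of the 75th percentile signal, was 3.69 and 3.25 in positive cells, against 5.11 and 5.59 in negative cells. Most of the positive sums came from Apoa2, which did not pass (3.199 and 2.96, against 2.45 and 2.43). Without it the other 4 summed to 0.488 and 0.287 in positive cells, against 2.66 and 3.16 in negative cells. The part of liver RNA in the differences of Ttr, Spp2, Hnf4a and other members was not tested.

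**Figure D3:**
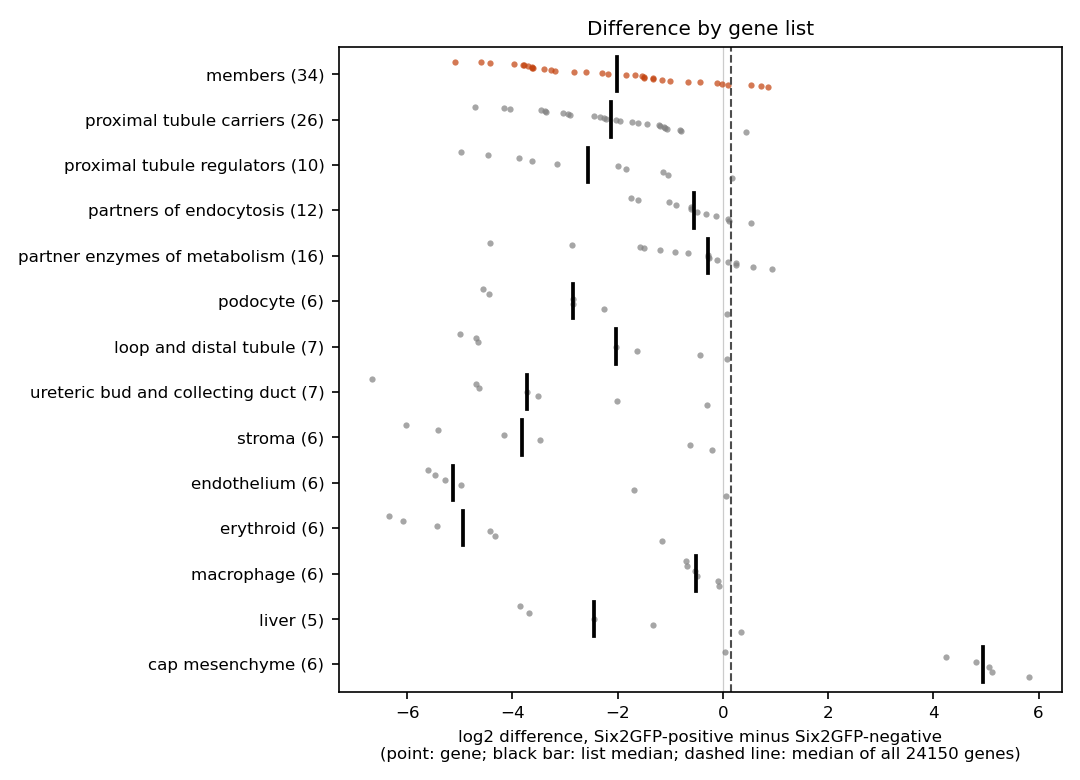
Log2 difference, Six2GFP-positive minus Six2GFP-negative (x axis), of each gene (points) in the members and in 13 other lists (rows, number tested in brackets), with list medians as black bars and the median of all 24150 genes, 0.15, as a dashed line. The medians of the members (-2.02), loop and distal tubule markers (-2.04) and proximal tubule carriers (-2.12) lie close together. The loop and distal median is the value of Slc12a1 (-2.04 ± 2.16, SE), which did not pass. In that list of 7, 3 markers were lower past the threshold and 4 did not pass. Liver (-2.46), proximal regulators (-2.57), podocyte (-2.85), ureteric bud (-3.72), stroma (-3.82), erythroid (-4.93) and endothelium (-5.13) lie further left. Endocytosis partners (-0.55), macrophage (-0.51), partner enzymes (-0.28) and cap mesenchyme (4.93) lie to the right.

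The 2 positive arrays also differed from each other in these genes. Of the 34, 30 had a higher signal on positive S1 than on positive S2, against 53% of all genes. The median gap, S1 minus S2, was 0.49 over the members and 0.012 over all genes. A gap of at least 0.5 was found in 17 of 34, against 6.07% of all genes, and of at least 1 in 6 of 34, against 1.7% of all genes. Between the negative arrays 14 of 34 were higher on S1, against 51.4% of all genes, with a median gap of -0.079, and 1 member, Cyp2e1 at 0.62, had a gap of at least 0.5, against 8.53% of all genes. None had a gap of at least 1, against 2.48% of all genes. With 1 array on each side the gap has no test. With normexp background correction the median positive gap was 0.20 with the 75th percentile and 0.26 with quantile normalization.

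Fbp1 (1.97), Spp2 (1.47), Acsm2 (1.18), Cyp2d26 (1.05), MeP1a (1.03) and Tmem27 (1.03) were the 6 members with a gap of at least 1 between the positive arrays. Hnf4a (0.087), Lrp2 (0.12), Dab2 (0.12) and Anpep (0.047) had close to the same signal on both. By role, the median gap was 0.90 for peptidases, 0.54 for sugar and inositol enzymes, 0.51 for amino acid and acyl enzymes, 0.46 for secreted and other proteins, 0.40 for uptake receptors and adaptors, 0.32 for the regulator and scaffold and 0.13 for cytochromes P450.

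Genes outside the members showed the gap too. Proximal tubule carriers had a median gap of 0.70 between the positive arrays, with 22 of 26 higher on S1, and loop and distal tubule markers 1.22, with 7 of 7 higher. Slc12a1 is the sodium carrier of the loop of Henle. Among genes well above background on a positive array it had the largest excess of positive S1 over S2, and is named for it. It had -3.01 on positive S1 and -9.07, not well above background, on positive S2, against -3.84 and -4.16 on the negative arrays. The summed level of the 7 loop and distal markers was 0.67 on positive S1 and 0.25 on positive S2, against 4.34 and 5.03 on the negative arrays, and that of the 34 members 12.7 and 10.3 against 48.2 and 53.1. Most of the negative loop and distal sums came from Irx1 (1.65 and 1.93, against -2.73 on positive S1). Irx2 and Pou3f3 also lay well below both negative arrays on positive S1. Slc12a3 lay above both there (-5.56 against -6.96 and -6.29), as Slc12a1 did. Umod lay between them (-2.71 against -2.63 and -3.14), and Kcnj1 just below (-2.38 against -2.02 and -2.31). Macrophage markers had a median gap of 0.54, with 6 of 6 higher on S1. The median gap was 0.30 for ureteric bud markers, with 7 of 7 higher on S1, 0.25 for stroma, 0.16 for liver, 0.10 for partner enzymes, 0.089 for the proximal regulators, 0.038 for podocyte, 0.021 for endothelial, 0.012 for cap mesenchyme markers and 0.0072 for endocytosis partners, and it was -0.21 for erythroid markers. The part of distal tubule, macrophage or other RNA in the members' gap was not tested.

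**Figure D4:**
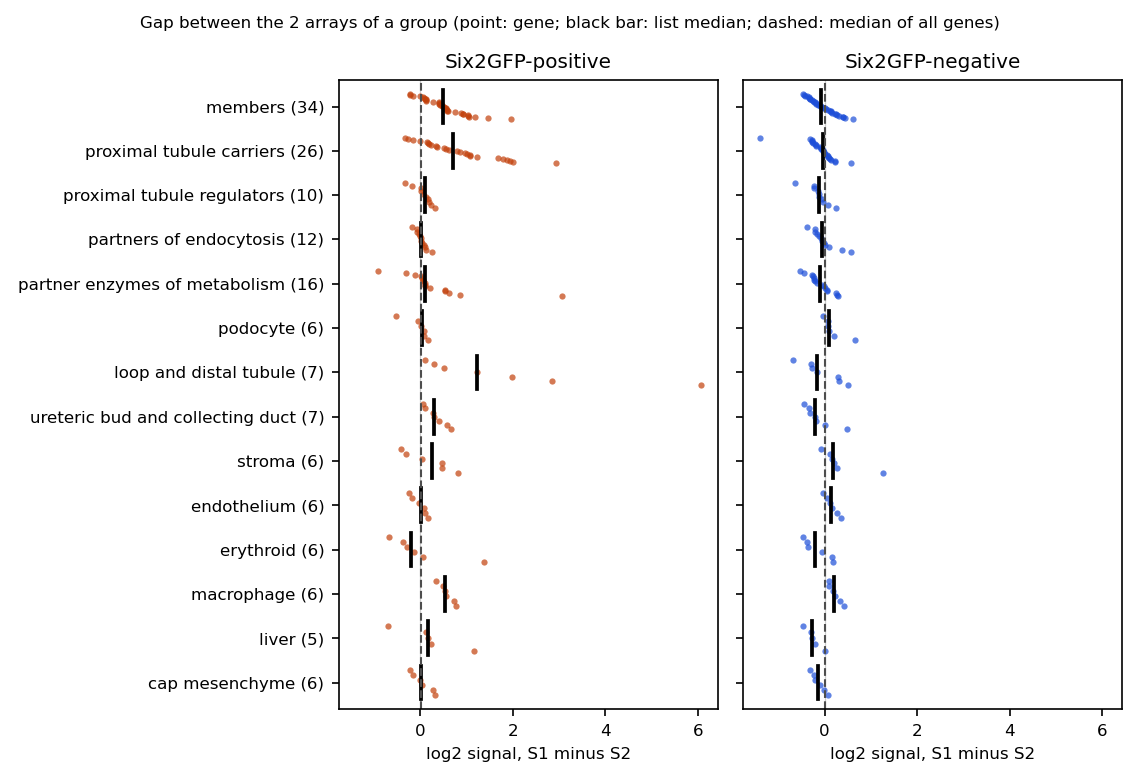
Log2 signal of S1 minus that of S2 (x axis) within Six2GFP-positive cells (left) and within Six2GFP-negative cells (right), for each gene (points) of the members and of the 13 other lists, with list medians as black bars and the median of all genes, 0.012 in positive and 0.0075 in negative cells, as dashed lines. In positive cells the members (0.49), the carriers (0.70) and the loop and distal markers (1.22) lie right of the dashed line. Macrophage (0.54), ureteric bud (0.30) and stroma (0.25) markers lie right of it too, and erythroid markers (-0.21) left of it. In negative cells the members' median is -0.079.

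Where several probes of a gene were kept, they mostly gave like differences. A total of 9 of the 34 genes had several, among them Pdzk1 (-3.70 and -3.60), Fut9 (-3.64 and -3.73), Tmem27 (-3.97 and -3.78), Mme (-3.80 and -3.57), Ass1 (-1.15 and -1.60) and Cubn (-2.59 and -3.50). The dimmer probes of Fut9 and Cubn were not well above background on either positive array. The probes of Folr1 lay over 1 apart with the same sign, and those of Cyp2e1 had opposite signs without passing. Ddc was not past the threshold with its brighter probe, while its other probe, fitted with each probe on its own, was higher (0.54 ± 0.087, adjusted p = 0.0158).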

How the data were processed

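Six2GFP-positive and Six2GFP-negative cells gave Cy3-labelled RNA for Agilent arrays (design 026655), 1 a sample, per the labels. The authors read their scans with Agilent Feature Extraction 10.7.3.1, with background subtraction and detrending within the array, per the file headers; the deposited files hold these linear intensity values, not normalized between arrays, with mm9 coordinates. The deposited series table holds the same intensity on a linear scale, within 0.01 log2 for 99.7% to 99.8% of probes, uncentred.

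Outlier spots were left out, spots of a probe averaged on the log2 scale and the array's 75th percentile over non-control probes subtracted. A probe was kept where both arrays of either group had it well above background (30012 of 39395). Names were updated through accessions in the RefSeq table (GRCm38.p6). The brightest kept probe stood for a gene, giving 24150 genes, fitted with limma 3.58.1 in R 4.3.3 (lmFit, eBayes, two-sided, Benjamini-Hochberg over all genes, adjusted p under 0.05). Where no probe was well above background in a group, the fold is a bound, set per array at the lowest signal well above background, or at the probe's signal where that was higher. The fit was tested on simulated data.

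Members and lists were chosen with earlier results of these data known. All members are given; in full, the 3 largest called differences per role, calls upward and genes with discordant probes; from each other list, the 2 largest called differences, except a few genes that are not reported here. Rab5a, Ppara, Pcx, Apoa2 and Slc12a1 were named after their values were seen. Alternatives were quantile, median and normexp (offset 50) settings, the series table, other filters and probe rules, a trended variance, each probe on its own, fits with a replicate block, and fits that leave out 1 array.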

Additional observations from a re-analysis of the deposited data

How the results depend on the processing

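Of the 27 member calls, 17 held in every alternative that tested them and 10 were lost in at least 1 (Dab2, Khk, Ass1, Gatm, Cyp2d26, Cyp24a1, Dpep1, MeP1a, Ttr and Dnase1). Without negative S1 or S2, 8 and 9 calls were lost, and without positive S1 or S2, 1 and 4; the cause was not tested. The members' median of -2.02 was -1.49 with normexp and the 75th percentile and -1.42 with normexp and quantile normalization, where 7 and 8 called members shrank by over 1.5 times, furthest for Cyp24a1 (-0.030 and -0.13). Leaving out 1 array gave medians of -2.35 to -1.82, 18 to 27 members lower and 0 to 1 higher. Without a filter on dim probes 1 member was higher.

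The 4989 genes called higher over the whole array became 10810 with the array median, 2618 without a filter, and 1320 to 2163 with 1 array left out. Differences that turned sign belonged to members that did not pass: G6pc gave 0.27 and 0.23 with quantile and median scaling and 0.094 and 0.15 with normexp and the 75th percentile or quantile normalization, and Miox 0.13 and 0.14 with quantile and median scaling and 0.081 with normexp and quantile normalization, while without 1 array G6pc ranged from -0.24 to 0.19, Miox from -0.57 to 0.35 and Cyp27b1 from -0.017 to 0.20. The cause was not tested.

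S1 and S2 share only a number in the labels; deviations from the group means correlated at 0.224 between the groups. With the replicate number as a block, 26 members were lower and 3 higher, beside 4371 genes lower and 4244 higher over the whole array. None of the 27 calls was lost, and Ddc and Cyp2e1 passed in limma (adjusted p = 0.0291 and 0.0442).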
